A study of Mus musculus with 10 samples.

Results

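The genes described are 10 mouse genes for surface proteins held to the membrane by a glycosylphosphatidylinositol (GPI) lipid anchor: Prnp, Cd24a, Thy1, Ly6a, Ly6e, Cd59a, Gpc1, Cd55, Cdh13 and Rtn4r. They were taken by symbol from a table of read counts for 56832 genes. All 10 were found, and all 10 were among the 12115 genes that passed the filter on low counts over the 10 libraries. The set was chosen by these symbols with an earlier comparison of the same libraries in view, and Prnp and Cd24a were selected on their GFP+ against GFP- fold changes. The GFP+ against GFP- values of the 10 genes are therefore a description, and no p-value is attached to them.

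Proteins of this class carry no membrane-spanning segment. A preassembled glycolipid is attached to them in the endoplasmic reticulum, and they sit in the outer leaflet of the plasma membrane, often in cholesterol-rich domains, from where phospholipases or proteases can release them. The class holds adhesion molecules, co-receptors for growth factors and the regulators that protect a cell from complement, the serum system that lyses marked membranes. In the heart such proteins are found on cardiomyocytes as well as on fibroblasts, endothelial cells and leukocytes, and Thy1 and Ly6a are used to sort cardiac stromal cells.

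The libraries came from hearts of 5 Sprr1a-GFP mice, which carry a green fluorescent reporter of Sprr1a, a gene for a small proline-rich protein. All 5 mice underwent myocardial infarction at 12 weeks of age, and hearts were digested by retrograde (Langendorff) perfusion 5 days later. The titles also carry the tag Hetz, which the labels do not explain. From each mouse 1 GFP+ library, described as border zone cardiomyocytes, and 1 GFP- library, described as remote zone cardiomyocytes, were made from sorted cells. The zone of a cell is thus known only through its reporter, no uninjured or uninfarcted heart was compared here, and the identifiers place 3 mice in a 21A series (21A4, 21A5, 21A7) and 2 in a 17C series (17C1, 17C2). Titles of GFP+ libraries name a DAPI-negative and a DAPI-positive fraction together, whereas those of GFP- libraries name the DAPI-negative fraction alone. DAPI enters cells with a damaged membrane, so the GFP difference and the difference in sorted fractions cannot be told apart.

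Libraries held 12244373 to 38879965 counts, of which 35.7% to 91.2% in GFP+ libraries and 9.20% to 61.9% in GFP- libraries fell on mitochondrially encoded genes. Counts outside those genes were fewest in the GFP+ library of 21A7 (3417972) and most in the GFP- library of 21A4 (16918067). Sprr1a had 1452 to 6903 counts in GFP+ libraries and 10 to 406 in GFP- libraries, as the sort labels state. All 10 cardiomyocyte markers searched for (Myh6, Tnnt2, Ryr2 and others) were detected. Their summed level was 10797 to 41824 CPM in GFP+ libraries and 4058 to 51293 CPM in GFP- libraries. CPM is a depth-scaled unit, with counts divided by library sizes scaled by TMM factors and not by library totals. On this scale the lowest was the GFP- library of 21A7. The order within 21A7 would turn by library totals, with 101179 GFP+ marker counts of 38879965 and 224483 GFP- marker counts of 16870349. Fibroblast markers (Col1a1, Dcn, Pdgfra and others, 10 of 10 detected) summed to 1764 to 5136 CPM in GFP+ and 6546 to 12104 CPM in GFP- libraries of 21A mice, and to 266 to 316 CPM in GFP+ and 131 to 284 CPM in GFP- libraries of 17C mice. In such bulk libraries, fewer cells of a type and less RNA per cell cannot be told apart.

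Prnp encodes the cellular prion protein, a copper-binding surface glycoprotein. In the order 21A4, 21A5, 21A7, 17C1 and 17C2, its level was 69.8, 80.6, 35.0, 84.6 and 66.7 CPM in GFP+ libraries, against 18.1, 18.4, 12.1, 20.9 and 20.8 CPM in the GFP- libraries of the same mice. On this TMM scale every GFP+ library stood above every GFP- library, and mouse 21A7 had the lowest level of both groups. By library totals the order within 21A7 would turn. Its GFP+ library had 328 Prnp counts of 38879965, and its GFP- library 672 of 16870349. The mean was 67.3 ± 19.5 CPM in GFP+ and 18.1 ± 3.55 CPM in GFP- libraries (SD, n = 5 each). Within a mouse the GFP+ level was 2.88-fold (21A7) to 4.39-fold (21A5) the GFP- level, and the log2 difference averaged 1.86 ± 0.25 (SD, n = 5 mice). The log2 fold change fitted across all genes by edgeR was 1.90 ± 0.30 (SE), and with the mouse as a block it was 1.86 ± 0.21. It was 1.95 ± 0.39 in the 21A mice and 1.87 ± 0.24 in the 17C mice taken alone.

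Cd24a encodes CD24, a small, heavily glycosylated adhesion protein used as a marker of immature lymphoid, epithelial and neural cells. Over mice in the same order, its level was 6.66, 22.1, 9.28, 30.3 and 26.1 CPM in GFP+ libraries, against 0.801, 1.31, 3.87, 0.837 and 3.23 CPM in GFP- libraries. These groups did not overlap either, but the margin was narrow in the 21A mice: the lowest GFP+ value (21A4) was below 2 times the highest GFP- value (21A7). By library totals the order within 21A7 would turn here too, with 87 GFP+ and 214 GFP- counts. The mean was 18.9 ± 10.4 CPM in GFP+ and 2.01 ± 1.44 CPM in GFP- libraries (SD, n = 5 each). The within-mouse ratio ran from 2.40-fold in 21A7 to 36.2-fold in 17C1. The GFP- level behind that last ratio rested on 14 counts, with a 95% exact Poisson interval of 0.458 to 1.41 CPM that covers counting error only. The fitted log2 fold change was 3.24 ± 0.60 (SE), and 3.29 ± 0.54 with the mouse as a block.

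**Figure D1:**
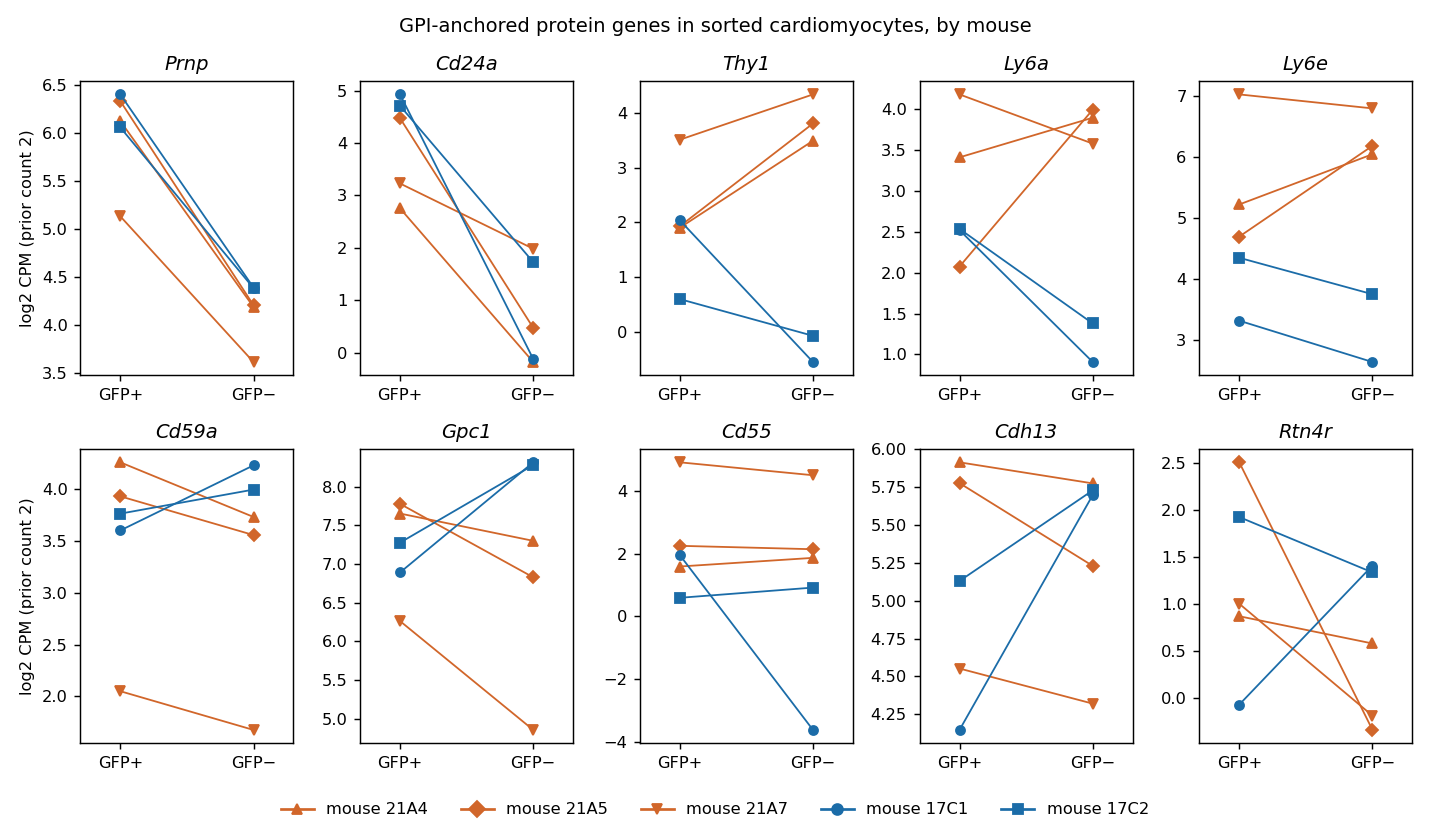
Level of each of the 10 genes in log2 CPM (vertical axis, prior count of 2, scale differs by panel) in GFP+ (left) and GFP- (right) libraries, with a line joining the libraries of a mouse. The 5 Prnp lines and the 5 Cd24a lines run down from GFP+ to GFP-, whereas the Gpc1 and Thy1 lines of 21A mice (orange) and 17C mice (blue) run in opposite directions.

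For Prnp and Cd24a alone among the 10 genes did the libraries not overlap in CPM. Over all tested genes, every GFP+ library stood above every GFP- library for 1.54%. Prnp was the 1 gene of the 10 that passed an adjusted p of 0.05 in the fit without a block, where edgeR called 0.0825% of all tested genes higher in GFP+ libraries and 0% lower. Before adjustment, 409 genes had a p under 0.05 with a lower level in GFP+ libraries. After adjustment, 45 lower genes were called by DESeq2 and 1 by limma's voom. With the mouse as a block, Prnp and Cd24a were called higher and 0 of the 10 lower, against 0.685% of all genes higher and 0.173% lower. In the 17C mice alone Prnp and Cd24a were called higher and Gpc1 lower, where 4.61% of 11107 genes were called higher and 4.92% lower. In the 21A mice alone edgeR called 0% of 13221 genes in either direction, while 1621 had an unadjusted p under 0.05. Nothing is read from these counts, since the same contrast chose the genes. The number of genes called higher without a block, 10, became 0 without mouse 17C1, 17C2, 21A4 or 21A5 and 58 without 21A7. Leaving out a single library also changed it: 0 genes were called once any of 4 GFP+ libraries (all but that of 21A7, which gave 34) or GFP- 17C2 was dropped, and 1 gene once GFP- 21A4 or GFP- 17C1 was. With the mouse as a block, 83 genes were called higher, but 0 without 17C2, 1 without 21A4 and 6 without 21A5.

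Mesothelial markers (Msln, Wt1, Upk3b and others, 8 of 8 detected and none at 0 in every library) moved in the same direction as Prnp and Cd24a. Their summed level was 114, 96.9, 405, 109 and 162 CPM in GFP+ libraries and 37.8, 27.8, 188, 0.718 and 15.6 CPM in GFP- libraries of 21A4, 21A5, 21A7, 17C1 and 17C2. It was higher in GFP+ libraries in 5 of 5 mice (two-sided exact test by sign flips within mice p = 0.0625, the smallest it can give with 5 mice, adjusted over 10 marker lists 0.25). The exact permutation test that leaves the pairing aside gave p = 0.0397 (adjusted 0.238). Neutrophil markers (9 of 9 detected) were higher in GFP+ libraries in 4 of 5 mice, with 3.37 to 17.3 CPM in GFP+ and 0.299 to 22.1 CPM in GFP- libraries. The part of these cells in the Prnp and Cd24a differences was not tested. Mural cell markers (8 of 8 detected) summed to 215 to 274 CPM in GFP+ and 186 to 635 CPM in GFP- libraries.

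The 250 bases before the annotated start of Prnp are shown because its CPM differed in the same direction in all mice. Those of Cd59a, a member without a common direction, are set beside them. Both are from RefSeq on GRCm38.p6, 5′ to 3′ on the gene's strand, Prnp at chr2:131909678-131909927 (+) and Cd59a at chr2:104095551-104095800 (+). The read counts were made on GRCm39, so these positions belong to the earlier build only. Capitals mark matches to the AP-1 letters TGANTCA, the TEAD letters GGAATG and the GC box GGGCGG, searched on both strands.
Prnp: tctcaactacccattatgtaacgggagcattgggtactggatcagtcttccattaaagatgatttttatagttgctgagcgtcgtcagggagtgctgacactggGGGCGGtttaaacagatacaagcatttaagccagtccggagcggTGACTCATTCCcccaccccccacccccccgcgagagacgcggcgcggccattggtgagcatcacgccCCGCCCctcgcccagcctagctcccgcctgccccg
Cd59a: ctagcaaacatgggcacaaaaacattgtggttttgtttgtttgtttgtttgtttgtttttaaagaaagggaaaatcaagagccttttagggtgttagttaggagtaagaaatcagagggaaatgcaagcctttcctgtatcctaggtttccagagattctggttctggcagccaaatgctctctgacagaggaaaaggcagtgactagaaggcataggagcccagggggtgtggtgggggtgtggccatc
The Prnp window held 1 AP-1 match, beginning 102 bases before the start, and 1 TEAD match on the opposite strand, beginning 97 bases before it, so that their letters overlap. It also held GC boxes 146 and 35 bases before the start. The Cd59a window held none of these letters. Of 32851 mouse promoters of this length, 6.75% held the AP-1 letters, 12.6% the TEAD letters and 32.7% the GC box. Promoters were matched for 4 of the 10 genes, and those of Cd55 and Rtn4r held 2 and 7 GC boxes and no AP-1 or TEAD match. These are matches of letters and not binding sites.

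Cd55 and Cd59a encode the complement regulators of the set: CD55 speeds the decay of the enzymes that activate C3, and CD59 blocks assembly of the membrane attack complex. Cd59a had 19.1, 15.2, 4.06, 12.1 and 13.5 CPM in GFP+ libraries of 21A4, 21A5, 21A7, 17C1 and 17C2, against 13.2, 11.7, 3.11, 18.7 and 15.9 CPM in their GFP- libraries. The groups overlapped throughout, with means of 12.8 ± 5.55 CPM in GFP+ and 12.5 ± 5.91 CPM in GFP- libraries (SD, n = 5 each). GFP+ exceeded GFP- in the 3 21A mice and fell short of it in both 17C mice. Cd55 had 2.93, 4.68, 30.1, 3.81 and 1.43 CPM in GFP+ libraries, against 3.57, 4.34, 22.6, 0 and 1.81 CPM in GFP- libraries. Both libraries of mouse 21A7 stood far above the rest. In 17C1 the 35 counts of the GFP+ library faced 0 counts in the GFP- library, and with a floor of 3 counts per library (0.179 CPM) the GFP+ level was at least 21.2-fold higher. In the other 4 mice the ratio of GFP+ to GFP- lay between 0.789 and 1.33.

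Thy1, Ly6a and Ly6e belong with stromal and endothelial cells in textbook use: THY1 (CD90) is a fibroblast and lymphoid surface protein, and Ly6a (Sca-1) and Ly6e are members of the Ly6/uPAR family, Ly6a being interferon-inducible and a sorting marker of progenitor and endothelial cells. Thy1 had 3.65, 3.72, 11.3, 4.02 and 1.43 CPM in GFP+ libraries of 21A4, 21A5, 21A7, 17C1 and 17C2, against 11.2, 13.9, 20.2, 0.598 and 0.866 CPM in GFP- libraries. The GFP+ level was the lower one in all 3 21A mice and the higher one in both 17C mice. Ly6e had 37.2, 25.8, 129.8, 9.90 and 20.3 CPM in GFP+ libraries, against 65.8, 72.4, 110.7, 6.16 and 13.4 CPM in GFP- libraries. Ly6a had 10.5, 4.13, 18.0, 5.65 and 5.71 CPM in GFP+ libraries, against 14.8, 15.8, 11.9, 1.79 and 2.52 CPM in GFP- libraries. For both Ly6 genes GFP+ was below GFP- in 21A4 and 21A5 and above it in 21A7, 17C1 and 17C2. Over the 10 libraries the log2 CPM values of these genes ran together, with Pearson's r of 0.903 for Thy1 with Ly6a, 0.889 for Thy1 with Ly6e and 0.904 for Ly6a with Ly6e. Libraries share mouse, series and makeup, so these coefficients are descriptive.

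Gpc1, Cdh13 and Rtn4r encode surface proteins that bind ligands. Glypican-1 carries heparan sulfate chains that bind growth factors, T-cadherin (Cdh13) is an adhesion protein that binds adiponectin, and the Nogo receptor (Rtn4r) binds inhibitors of axon growth. Gpc1 had 201, 220, 76.7, 119 and 155 CPM in GFP+ libraries of 21A4, 21A5, 21A7, 17C1 and 17C2, against 158, 114, 28.9, 319 and 311 CPM in GFP- libraries. GFP+ was higher in every 21A mouse and lower in both 17C mice, and the means of 154 ± 58.6 CPM in GFP+ and 186 ± 126 CPM in GFP- libraries (SD, n = 5 each) hide that split. Cdh13 followed the same split, with 60.3, 54.8, 23.4, 17.6 and 34.9 CPM in GFP+ libraries, against 54.7, 37.5, 19.9, 51.9 and 53.0 CPM in GFP- libraries. Its 21A differences were small, at 1.10-fold to 1.46-fold. Rtn4r had the lowest mean CPM of the set over all mice in each group, at 1.74, 5.60, 1.92, 0.870 and 3.71 CPM in GFP+ libraries and 1.41, 0.708, 0.795, 2.57 and 2.44 CPM in GFP- libraries. In GFP- libraries of 17C mice alone Rtn4r averaged 2.51 CPM, above Thy1 (0.732) and Cd55 (0.905) among others. Its libraries held 8 to 122 counts, and GFP+ exceeded GFP- in 4 mice and not in 17C1.

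**Figure D2:**
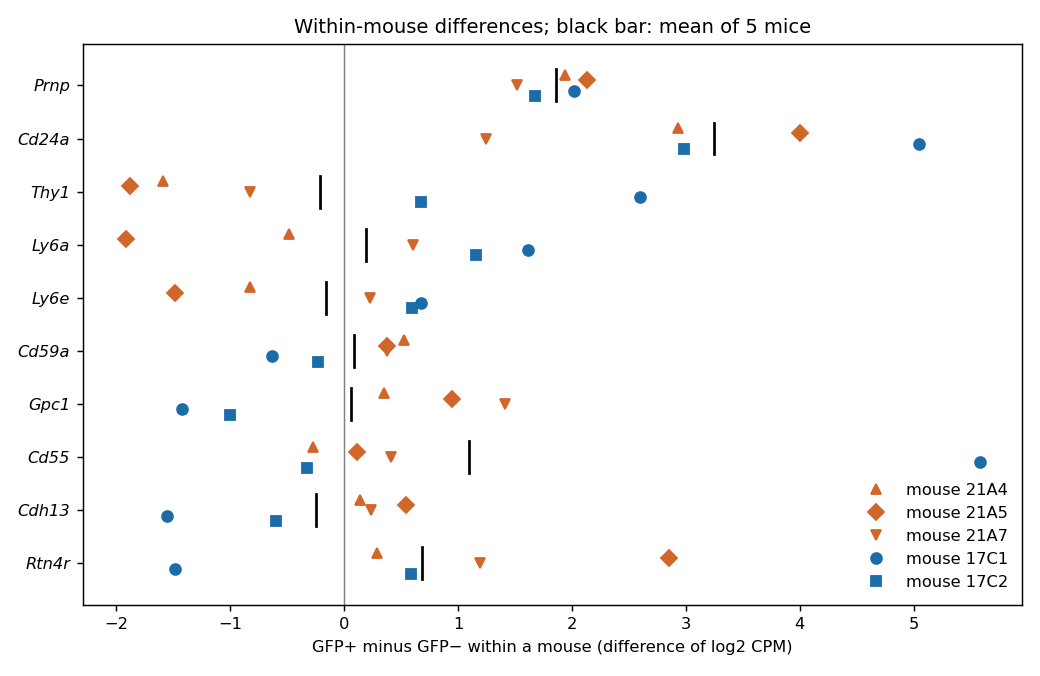
Difference of log2 CPM between the GFP+ and the GFP- library of each mouse (horizontal axis, points) for the 10 genes, with the mean of 5 mice as a black bar. Prnp points lie between 1.52 and 2.13 and Cd24a points between 1.25 and 5.05, while points of 17C mice (blue) and 21A mice (orange) lie on opposite sides of 0 for Thy1, Cd59a, Gpc1 and Cdh13.

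Whether the GFP+ against GFP- change differed between the 21A and 17C mice was tested across all genes. The genes were not chosen on this contrast, but the same libraries were in view. Prnp and Cd24a were selected on their change over all 5 mice, which can favour genes with like changes in both series. Nothing is therefore read from their series differences. Without a block, edgeR called 0% of tested genes (1713 had an unadjusted p under 0.05), and 0 of the 10. With the mouse as a block, edgeR called 7.62% of tested genes, and 2 of the 10 were among them. Gpc1 had a log2 difference of 2.12 ± 0.41 (SE, 21A minus 17C; edgeR adjusted p = 0.0251, 0.362 without the block). Thy1 had one of -3.23 ± 0.74 (edgeR adjusted p = 0.0352, 0.218 without the block). Cdh13 missed the threshold with 1.38 ± 0.37 (edgeR adjusted p = 0.0524), as did Cd59a with 0.87 ± 0.40 (edgeR adjusted p = 0.203) and Ly6a with -2.01 ± 0.74 (edgeR adjusted p = 0.122). Prnp differed by 0.02 ± 0.33 (edgeR adjusted p = 0.981) and Cd24a by -1.20 ± 0.90 (edgeR adjusted p = 0.446), intervals that leave room for a difference. Mice of each series lay on opposite sides of 0 for 4 of the 10 genes and for 14.8% of all tested genes. Gpc1 lost its call without 17C1 (edgeR adjusted p = 0.138) or 21A5 (0.108), and Thy1 without 17C1 (0.198), 21A4 (0.0882) or 21A5 (0.121). Scaled to the summed cardiomyocyte markers, the Gpc1 difference was 0.18 (edgeR adjusted p = 0.770) and the Thy1 difference -5.17 (0.000835). On that scale the blocked edgeR fit called 5157 of 12115 tested genes, against 923 without the scaling, so the Thy1 call is not particular to it. With library totals in place of TMM factors, the Gpc1 difference turned to -0.10 (edgeR adjusted p = 0.960) and the Thy1 difference was -5.39 (0.0349).

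Mean levels also differed between the series within each kind of library. In GFP+ libraries, however, the series overlapped for each gene named below except Ly6e. Thy1 averaged 15.1 CPM in GFP- libraries of 21A mice and 0.732 CPM in those of 17C mice, a ratio of 20.6, while in GFP+ libraries it averaged 6.23 CPM in 21A and 2.73 CPM in 17C mice, a ratio of 2.28. The corresponding 21A over 17C ratios were 4.80 in GFP+ and 11.2 in GFP- libraries for Cd55, 4.26 and 8.49 for Ly6e in the same order, and 1.92 and 6.57 for Ly6a. Mouse 21A7 had the highest GFP+ level of Thy1 (11.3 CPM), Cd55 (30.1), Ly6e (129.8) and Ly6a (18.0). In GFP+ libraries Thy1 in 17C1 (4.02 CPM) was above 21A4 (3.65) and 21A5 (3.72). Cd55 in 17C1 (3.81) was above 21A4 (2.93), and Ly6a in 21A5 (4.13) was below 17C1 (5.65) and 17C2 (5.71). For Gpc1 they were 1.21 in GFP+ and 0.318 in GFP- libraries. Cdh13 had 1.76 in GFP+ and 0.712 in GFP- libraries, and Prnp 0.817 in GFP+ and 0.778 in GFP- libraries. Fibroblast, endothelial and macrophage markers moved with the ratios of Thy1, Ly6a, Ly6e and Cd55. Endothelial markers (Pecam1, Cdh5, Kdr and others, 10 of 10 detected) summed to 162 to 336 CPM in GFP+ and 545 to 640 CPM in GFP- libraries of 21A mice, and to 45.2 to 79.8 CPM in GFP+ and 81.1 to 109 CPM in GFP- libraries of 17C mice. Macrophage markers (10 of 10 detected) summed to 67.6 to 320 CPM in GFP+ and 293 to 694 CPM in GFP- libraries of 21A mice, against 21.3 to 37.8 CPM in GFP+ and 21.7 to 26.7 CPM in GFP- libraries of 17C mice. Their part in the levels of Thy1, Ly6a, Ly6e and Cd55 was not tested. The share of mitochondrial counts in GFP- libraries also differed by series, at 9.20% to 35.7% in 21A and 58.1% to 61.9% in 17C mice.

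Gpc1 was then set against the cardiomyocyte markers, a denominator chosen after the values were seen. Per 1000 counts of the 10 markers, Gpc1 had 4.81, 5.58, 7.11, 5.81 and 5.88 counts in GFP+ libraries of 21A4, 21A5, 21A7, 17C1 and 17C2, against 4.81, 5.72, 7.11, 7.34 and 6.06 counts in GFP- libraries. On this scale GFP+ and GFP- libraries of each 21A mouse were nearly the same, although their CPM values differed by up to 2.66-fold. The coefficient of variation over the 10 libraries was 15.0%, against 55.5% for Gpc1 in CPM, and only 9 of 4750 genes with a mean of at least 10 CPM had a lower one (0.189%, median of all 107%). Cd59a had 28.0%, lower than all but 2.27% of those genes. Prnp per 1000 cardiomyocyte marker counts was 1.67, 2.05, 3.24, 4.14 and 2.53 in GFP+ libraries and 0.554, 0.924, 2.99, 0.481 and 0.405 in GFP- libraries, higher in GFP+ in every mouse but with overlap through 21A7. Cd24a on this scale was 0.159, 0.563, 0.860, 1.49 and 0.990 in GFP+ libraries and 0.0245, 0.0657, 0.953, 0.0193 and 0.0629 in GFP- libraries, so that in 21A7 the GFP+ value was the lower one. Thy1 per 1000 fibroblast marker counts was 1.77, 2.11, 2.20, 15.1 and 4.52 in GFP+ libraries, against 1.71, 1.28, 1.67, 4.56 and 3.05 in GFP- libraries. It was higher in GFP+ in each mouse, but nearly equal in 21A4, where the GFP+ value rested on 46 Thy1 counts. In 17C2 the GFP+ and GFP- libraries held only 15 and 11 Thy1 counts, and in 17C1 37 and 10.

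**Figure D3:**
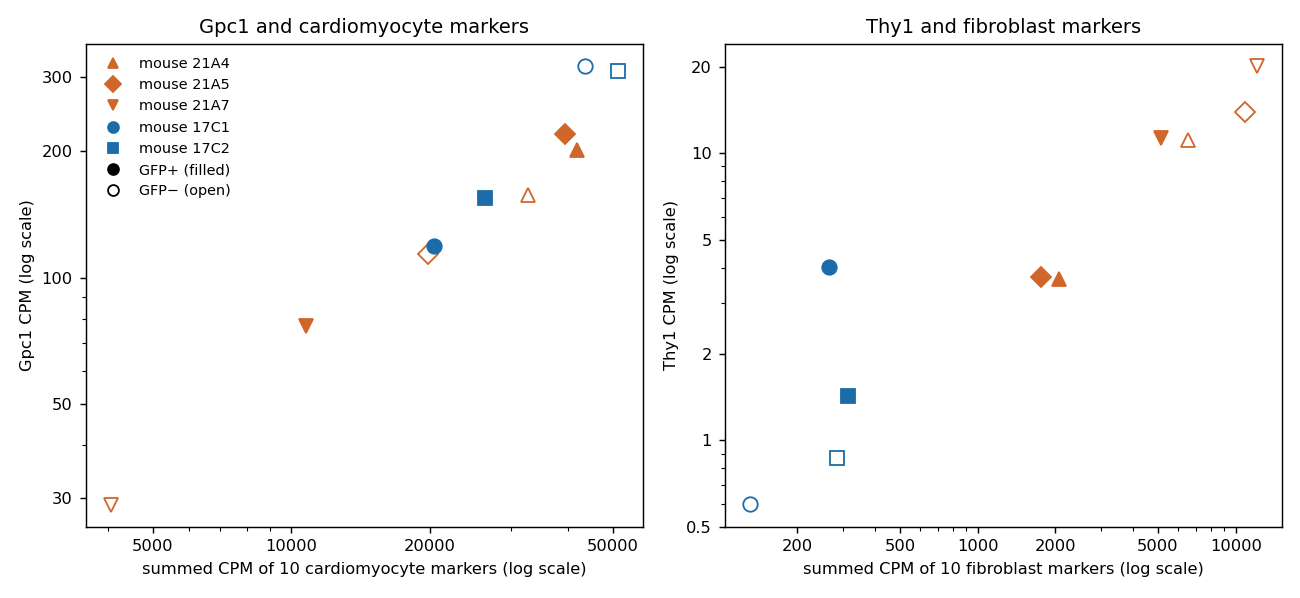
Left, Gpc1 CPM against the summed CPM of 10 cardiomyocyte markers; right, Thy1 CPM against the summed CPM of 10 fibroblast markers, on log axes, with filled symbols for GFP+ and open symbols for GFP- libraries. Gpc1 lies close to a single line from the GFP- library of 21A7 (28.9 CPM) to those of 17C1 and 17C2 (319 and 311 CPM), and Thy1 is high where fibroblast markers are high, in the GFP- libraries of 21A mice.

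Per kilobase of exon, levels can be compared between genes. The exon lengths came from an annotation of GRCm38 and not from the build of the counts. Mean levels in GFP+ libraries were 29.9 CPM per kilobase for Gpc1 and 28.7 for Prnp, followed by 11.8 for Ly6e, 7.33 for Cd24a, 7.32 for Ly6a and 7.06 for Cd59a. Cdh13 (3.40), Cd55 (1.77), Thy1 (1.61) and Rtn4r (1.43) came last. In GFP- libraries Gpc1 again led with 36.0 CPM per kilobase, while Prnp had 7.71, Rtn4r 0.818 and Cd24a 0.778. These orders pool series that differ. In GFP- libraries of 21A mice Ly6e averaged 21.9 CPM per kilobase and Gpc1 19.4, and in those of 17C mice Cd24a (0.788) stood above Thy1 (0.244) and Cd55 (0.187). In GFP+ libraries of 17C mice Prnp averaged 32.3 and Gpc1 26.5 CPM per kilobase. The standard deviations in GFP+ libraries overlapped between Gpc1 and Prnp, between Cd24a, Ly6a and Cd59a, and between Cd55, Thy1 and Rtn4r. These neighbours cannot be ordered. Nor can Ly6e be placed, with 44.6 ± 48.6 CPM in GFP+ libraries (SD, n = 5). Several near relatives of the genes had few counts over the 10 libraries together, with 0 for Cd55b, 4 for Prnd, 64 for Cd59b and 36 for Ly6a2, against 2127 for Cd55, 7507 for Prnp, 2772 for Cd59a and 2713 for Ly6a. This did not hold for Ly6c1, a relative of Ly6a, which had 1315 counts. How reads matching several copies were counted is not given in the sources used here.

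Genes that act on or with the 10 were taken from fixed lists, which were chosen with earlier results known, so calls among them are descriptions. Of 36 genes that build, attach or remodel the anchor, 30 were tested and edgeR called 0 in either direction, with or without the mouse as a block. At an unadjusted p under 0.05 there were 4 in each fit, against 991 of all 12115 genes without and 1858 with the block, and DESeq2 and voom also called 0. Their median log2 fold change was 0.21 without and 0.17 with the block, against -0.07 and -0.04 for all tested genes. Pigq, a subunit of the enzyme for the first step, averaged 15.9 ± 3.15 CPM in GFP+ and 9.44 ± 2.62 CPM in GFP- libraries (SD, n = 5 each) and was higher in 5 of 5 mice, but did not pass (log2 fold change 0.75 ± 0.27, edgeR adjusted p = 0.496). Pigu, a subunit of the transamidase that attaches the anchor, had 0.89 ± 0.31 (edgeR adjusted p = 0.490). Pigl averaged 1.91 ± 0.847 CPM in GFP+ and 0.595 ± 0.547 CPM in GFP- libraries and was higher in 4 of 5 mice. It did not pass either (1.65 ± 0.66, edgeR adjusted p = 0.551). Pigb, a mannosyltransferase of anchor assembly, leaned the other way, with 0.530 ± 0.582 CPM in GFP+ and 1.93 ± 1.09 CPM in GFP- libraries, lower in 5 of 5 mice, and did not pass (-1.80 ± 0.81, edgeR adjusted p = 0.604). Of 3 tested genes for cleavage of anchored proteins, including the sheddase Adam10, 0 passed in either edgeR fit, with 1 at an unadjusted p under 0.05 in each. That gene was Gdpd5, with 2.56 ± 1.48 CPM in GFP+ and 6.82 ± 2.09 CPM in GFP- libraries. It was lower in 5 of 5 mice (-1.40 ± 0.47, edgeR adjusted p = 0.448), whereas Adam10 had -0.04 ± 0.50.

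Among 39 tested genes for other GPI-anchored proteins, edgeR called 0 without the block and 1 higher with it. That gene was Nt5e, the ectoenzyme CD73 that makes adenosine from AMP. It averaged 18.8 ± 8.84 CPM in GFP+ and 5.26 ± 1.37 CPM in GFP- libraries (SD, n = 5 each), and its log2 fold change was 1.79 ± 0.28 with the block (edgeR adjusted p = 0.0376, 0.0777 without it). This call was lost without mouse 17C2, where the blocked fit called 0 genes. Alpl, tissue-nonspecific alkaline phosphatase, averaged 20.8 ± 8.19 CPM in GFP+ and 7.82 ± 4.08 CPM in GFP- libraries and did not pass (1.47 ± 0.28 with the block, edgeR adjusted p = 0.0572). Art4, an ADP-ribosyltransferase family member, was at 1.07 ± 0.965 CPM in GFP+ and 5.53 ± 1.78 CPM in GFP- libraries, lower in 5 of 5 mice, and did not pass either (-2.82 ± 0.68 with the block, edgeR adjusted p = 0.111). The median of this list was -0.40 without and -0.18 with the block, below that of all genes.

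Ligands and partners of the 10 genes gave 2 calls, in lists that were chosen with earlier results of these data known. Rtn4, whose product Nogo is the ligand after which the receptor Rtn4r is named, averaged 457 ± 182 CPM in GFP+ and 52.6 ± 22.2 CPM in GFP- libraries (SD, n = 5 each). It was the 1 of 6 tested Nogo partners that rose (log2 fold change 3.12 ± 0.47, edgeR adjusted p = 0.0358), a call lost without mouse 17C1, 17C2, 21A4 or 21A5, where 0 genes passed. Of 15 tested complement genes, C1qc, a chain of the recognition molecule C1q made largely by macrophages, fell with the block (-1.91 ± 0.34, edgeR adjusted p = 0.0480) and did not pass without it (edgeR adjusted p = 0.600). Without 17C2, 21A4 or 21A5 the blocked fit called 0 genes lower, C1qc included. It averaged 9.18 ± 8.85 CPM in GFP+ and 38.3 ± 34.2 CPM in GFP- libraries, and the macrophage markers given above were lower in GFP+ libraries in 4 of 5 mice. The complement list had a median of -1.22 without the block, with -1.22 in 21A mice and 0.71 in 17C mice. Fyn, a kinase that signals from the prion protein, averaged 8.74 ± 2.21 CPM in GFP+ and 18.1 ± 2.34 CPM in GFP- libraries, lower in 5 of 5 mice, and did not pass (-1.08 ± 0.22 with the block, edgeR adjusted p = 0.0698). In both edgeR fits, 0 of 7 tested prion protein partners, 0 of 17 glypican, syndecan and heparan sulfate genes, 0 of 8 adiponectin receptor and cadherin genes and 0 of 4 Ly6/uPAR genes were called. At an unadjusted p under 0.05 these lists had 1, 1, 0 and 0 genes without the block and 3, 3, 1 and 0 with it.

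**Figure D4:**
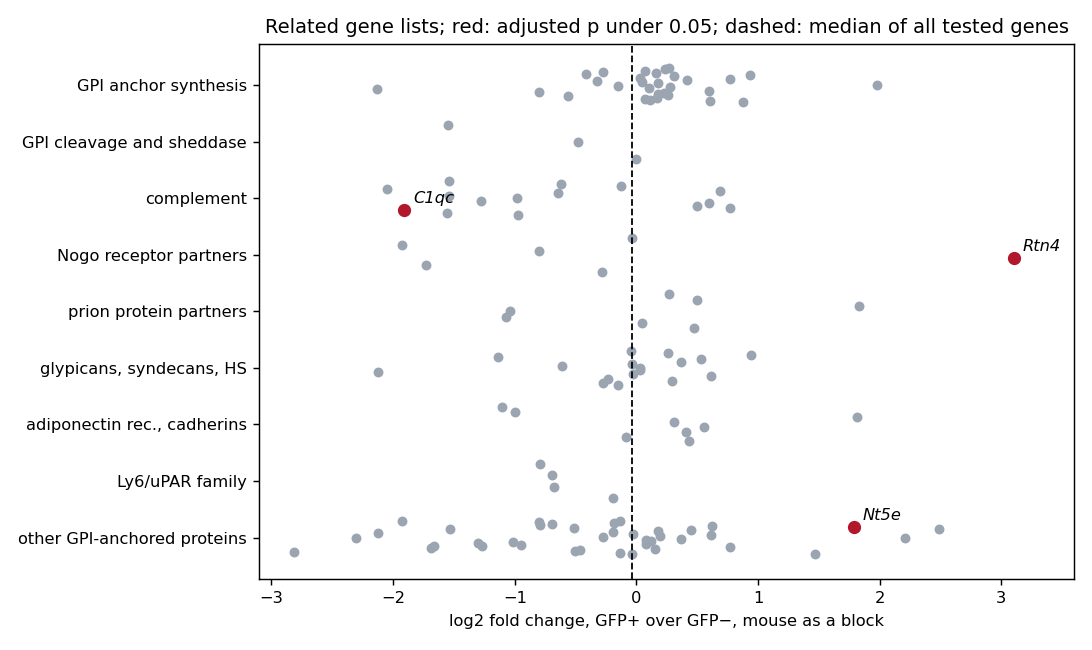
Log2 fold change, GFP+ over GFP- with the mouse as a block (horizontal axis), of each tested gene of 9 related lists (rows), with genes of adjusted p under 0.05 in red and the median of all tested genes (-0.04) as a dashed line. Rtn4 and Nt5e lie to the right and C1qc to the left. The GPI anchor synthesis genes lie on both sides of the dashed line, from Pigb (-2.14) to Pigl (1.98).

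The genes whose log2 CPM ran most like that of Prnp over the 10 libraries were Cd81 (Pearson's r = 0.972), a tetraspanin of the cell surface, Zfp697 (0.969), the secreted protease gene Htra1 (0.968), the calcium-dependent kinase gene Camk1 (0.965) and the junctional adhesion gene Jam2 (0.965), out of 4697 genes. Those most like Cd24a were Ctps (0.961), which makes CTP, Rexo2 (0.959), the glucose transporter gene Slc2a1 (0.958), Plp2 (0.950) and Acot9 (0.947). Prnp and Cd24a themselves had an r of 0.832. Within a group of 5 libraries the r with Prnp of its 5 genes ran from 0.691 to 0.939 in GFP+ and from 0.601 to 0.993 in GFP- libraries, and that with Cd24a of its 5 genes from 0.886 to 0.998 in GFP+ and from 0.551 to 0.914 in GFP- libraries. These values are descriptions over libraries that share mice.

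**Figure D5:**
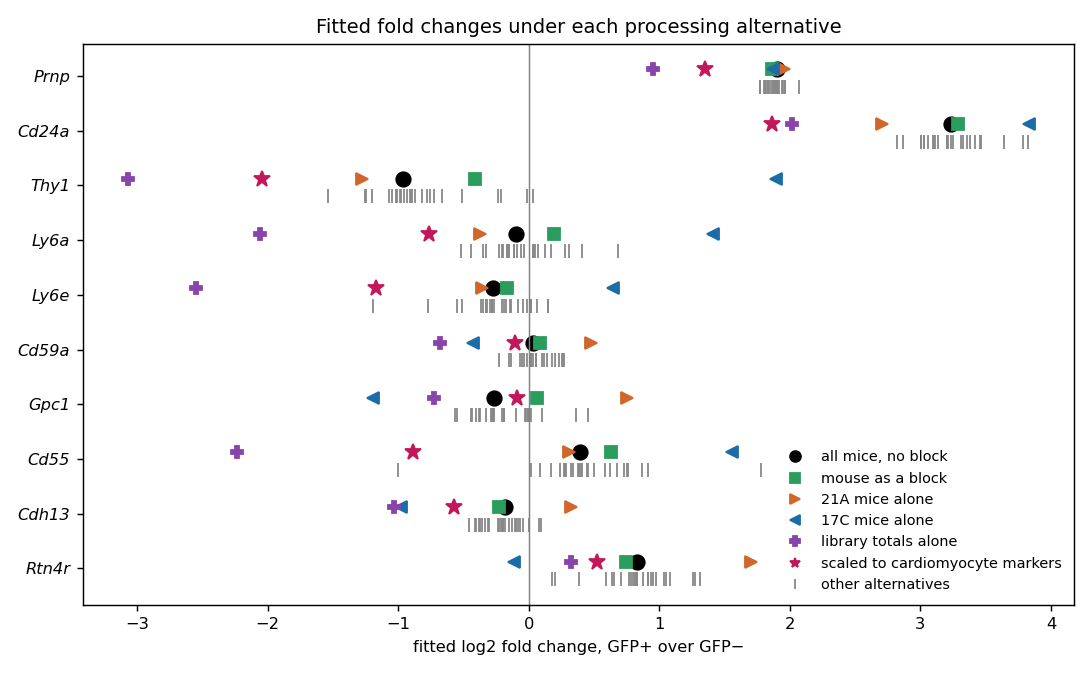
Fitted log2 fold change, GFP+ over GFP- (horizontal axis), of the 10 genes with all mice, with the mouse as a block, in the 21A and 17C mice alone, with library totals in place of TMM, scaled to cardiomyocyte markers, and under the other alternatives (grey ticks). Prnp stays between 0.95 and 2.07 and Cd24a between 1.86 and 3.83, while the values of the other 8 genes lie on both sides of 0.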

How the data were processed

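RNA of GFP+ and GFP- sorted cells from 5 mice was sequenced, 1 library of each kind per mouse, after SMARTer pre-amplification and Nextera XT library preparation, per the labels' protocols. No molecular identifiers are named and the kits do not mark strand. The deposited values are raw whole-number counts per gene, not normalized. The submitters' processing notes name GRCm39, featureCounts, Subread 2.0.1, STAR 2.7.9a and fastp 0.23.1. Which annotation was used, whether strand was set and how multi-mapping reads were treated is not given in the sources used here.

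The whole table was fitted in R 4.3.3 with edgeR 4.0.16 (TMM factors, filterByExpr, two-sided quasi-likelihood F-test, Benjamini-Hochberg adjusted p under 0.05 over all tested genes). The fit without a block was the primary one. An alternative took the mouse as a block. The pairing comes from the animal identifier that both libraries of a mouse carry. Their deviations from the group means correlated with r of 0.161, 0.0741 and 0.637 (21A4, 21A5, 21A7) and 0.292 and 0.397 (17C1, 17C2). No 2 libraries of 45 pairs were identical. A standard error is the absolute log2 fold change over the root of the F statistic. CPM uses TMM-scaled library sizes, and log2 CPM a prior count of 2. DESeq2 1.42.0 and voom of limma 3.58.1 served as alternatives. The code was tested on simulated data.

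All 10 genes were named. For each list, up to 3 tested genes with the smallest p in either fit could be named, and for Prnp and Cd24a the 5 genes with the most similar levels. The genes and lists were chosen with earlier results of these data known. The scaling to cardiomyocyte markers and the counts per 1000 marker counts were added after the values were seen. Exact Poisson intervals and the floor of 3 counts cover counting error only. Exon lengths and promoter sequences belong to GRCm38. Depth per library is given in counts with the results. The results of 3 of the 10 marker lists are not reported here.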

Additional observations from a re-analysis of the deposited data

Results flagged for a closer look

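Mouse 21A7 stood apart for 3 of the genes, by the gap to the nearest of the other 4 libraries over the range of the group (critical value 0.71). Its GFP+ library had 30.1 CPM of Cd55, 129.8 CPM of Ly6e and 11.3 CPM of Thy1, and its GFP- library had 22.6 CPM of Cd55. In mouse 17C1 the Cd55 difference of 5.58 (GFP+ minus GFP-, log2 CPM) stood apart from the other 4 mice, where the GFP- library had 0 counts, so its size depends on the prior count. Such a test was made for 30 groups of 5 values, and chance marks about 1 group in 20. The GFP+ library of 21A7 also had the largest mitochondrial share (91.2%) and its GFP- library the lowest TMM-scaled cardiomyocyte marker level (4058 CPM) of the 10 libraries.

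The GFP+ against GFP- change differed between 21A and 17C mice by 2.12 for Gpc1 and by -3.23 for Thy1 (log2, 21A minus 17C, mouse as a block), with edgeR adjusted p of 0.0251 and 0.0352. Mice of each series also lay on opposite sides of 0 for Cdh13 (difference 1.38) and Cd59a (0.87), whose edgeR adjusted p of 0.0524 and 0.203 did not pass. Cardiomyocyte and fibroblast marker levels of the GFP- libraries differed between the series as well, and their part in these differences was not tested. Scaled to cardiomyocyte markers, the difference was 0.18 for Gpc1 and -5.17 for Thy1, and with library totals it was -0.10 for Gpc1 and -5.39 for Thy1.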

How the results depend on the processing

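The 10 genes had 317 fitted log2 fold changes over 32 alternatives, of which 307 lay within 1 SD of the within-mouse difference from the reported value. Prnp (0.95 to 2.07) and Cd24a (1.86 to 3.83) kept their sign in all of theirs. The other 8 changed sign in at least 1, Ly6a in 13, Cd59a in 10, Ly6e and Gpc1 in 6 each. Library totals in place of TMM gave a median over all genes of -1.24, against -0.07 in the main fit, with 0.95 for Prnp and -3.07 for Thy1. The cardiomyocyte marker scaling gave a median of -0.69 and 1.35 for Prnp. The number of genes higher in GFP+, 10, became 83 with the mouse as a block (replicate block), 160 with DESeq2, 26 with voom, 38 without a low-count filter, 18 with at least 5 CPM in 5 libraries, 77 with series as a covariate, 512 in 17C mice, 0 in 21A mice and 0 scaled to cardiomyocyte markers. Without a block it ran from 0 to 58 when a mouse or library was left out. With the replicate block it ran from 0 to 99 when a mouse was left out. The number lower, 0, became 21 with the replicate block, 45 with DESeq2, 1 with voom, 624 with library totals, 1 with at least 5 CPM in 5 libraries, 20 with series as a covariate and 547 in 17C mice. Without a block it stayed at 0 when a mouse or library was left out. With the replicate block it ran from 0 to 74 when a mouse was left out. The number of genes whose change differed between series, 0 without a block, became 923 with it, 1500 with library totals and 698 without a filter, and ran from 0 to 552 in leave-one-out fits. With the replicate block it became 473, 1733 and 5157 with library totals, no filter and cardiomyocyte marker scaling, and ran from 0 to 1035. Without the block, Gpc1 passed only without 21A7 (edgeR adjusted p = 0.0271) and Thy1 without 21A7 (0.0329) or its GFP+ library (0.0499), with library totals (0.00220) or without a filter (0.00565). Cdh13 passed in the blocked fit without a filter (edgeR adjusted p = 0.0186), with at least 5 CPM in 5 libraries (0.0444) or without 17C2 (0.0319). GPI anchor synthesis genes numbered 0 in every alternative run. The cause of these shifts was not tested. With 2 mice in the 17C series and 14 to 214 Cd24a counts in GFP- libraries, precision is limited there.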

Other observations

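In the 17C mice alone (4 libraries), surface genes from the same lists passed that did not pass over all 5 mice. Calls there were 2 higher among prion protein partners and 2 higher among adiponectin receptor and cadherin genes. The glypican, syndecan and heparan sulfate list had 3 higher and 1 lower. Other GPI-anchored proteins had 3 higher, Nt5e included, and 2 lower, and the Ly6/uPAR list 1 lower. The genes given next had the smallest adjusted p of those not called over all 5 mice. Ncam1, a neural adhesion molecule with a GPI-anchored isoform, had a log2 fold change of 0.46 in 21A and 4.10 in 17C mice (edgeR adjusted p = 0.00254 in 17C mice). Sdc4, a transmembrane heparan sulfate proteoglycan, had 0.19 in 21A and 2.08 in 17C mice (edgeR adjusted p = 0.00563 in 17C mice). Lynx1, a Ly6/uPAR protein that binds nicotinic receptors, had -0.02 in 21A and -1.94 in 17C mice (edgeR adjusted p = 0.00644 in 17C mice). Over all genes tested in the 17C mice, 4.61% were called higher and 4.92% lower. These genes are named for passing there, so no test of a difference between the series is given for them. Nt5e had a log2 fold change of 1.73 in 21A and 1.98 in 17C mice, and its series difference was -0.14 ± 0.53 (edgeR adjusted p = 0.902).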
